A study of Mus musculus with 5 samples.

Results

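The genes described here are 47 genes of blood vessels and of the blood-brain barrier, chosen by symbol for their known roles as endothelial junction, barrier transport, angiopoietin, tip cell and leukocyte adhesion genes, out of 19057 genes with a probe on the array. They were read in 5 mouse gliomas, 3 labelled mutIDH1 and 2 labelled wtIDH1. The mutIDH1 tumours grew in Ntva Ink4a/Arf-/- mice injected with a mixture of DF1 cells making PDGFa virus and DF1 cells making muIDH1-shp53 virus, and the wtIDH1 tumours, the control group of the labels, in mice of the same genotype injected with PDGFa and wtIDH1-shp53 cells. All 5 tumours therefore share the loss of Ink4a/Arf, the PDGFa virus and the shp53 hairpin, and differ by label in the form of IDH1. The mice had a mixed background of FVB/N, C57BL6, BALB/C and 129, were otherwise untreated, and were followed until they showed signs of illness; their ages are not stated in the labels. In the RCAS/tva system the avian virus enters only cells that bear the tva receptor. In Ntva mice that receptor is driven by the nestin promoter, which is active in neural progenitors. Whether vessel cells also took up virus was not tested. RNA came from whole tumour tissue, where fewer endothelial cells and less RNA per endothelial cell cannot be told apart.

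Brain endothelial cells are joined by adherens junctions, built on VE-cadherin, and by tight junctions, built on claudin-5 and occludin, and they carry transporters that admit nutrients and pump foreign molecules back into the blood. Together these form the blood-brain barrier. In gliomas, where VEGF is abundant, vessels sprout from tip cells and can become wide, leaky and fenestrated, with high Angpt2, Esm1 and Plvap. The angiopoietins act on the endothelial receptor Tie2, Angpt1 as its activator and Angpt2 mostly as an antagonist that loosens vessels.

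Each sample was 1 biotin-labelled array with 45281 probes, and the values are log2 signals that had been normalized together by the authors. Of the 47 genes, 45 had a probe and 43 were tested, each by its brightest probe. Slc7a5 and Ly6a were not analysed here, and the single probes of Apln, the apelin ligand of tip cells, and Sele, E-selectin, were among the dimmest 20% of probes, which were left out. A background level was set at a log2 signal of 7.51, the mode of all signals plus 3 times the spread below it. Of the 43 genes, 35 exceeded it on at least 1 array. The other 8 (Ocln, Slco1a4, Abcb1a, Abcg2, Mmrn1, Clec14a, Selp and Erg) were at or under it on all 5 arrays, so that these probes gave no measurable level in either group and no fold. Several of these are genes that normal brain endothelium expresses. Over all 16917 tested genes the mutIDH1 samples correlated with each other at r between 0.988 and 0.994 and the wtIDH1 samples at 0.971 (genes are not independent). With 5 arrays, precision is limited by their number. Idh1 itself read 11.08, 10.73 and 10.94 in mutIDH1 samples 1, 2 and 3, against 11.02 and 10.47 in wtIDH1 samples 1 and 2. Whether its probe reads the delivered gene is not known here, so it does not check the labels.

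To show what lies upstream of the genes that the results turn on, the windows from 250 bases before to 50 after the start were taken from RefSeq (GRCm38.p6). Of the 47 genes, 27 had a window; Vwf, Mmrn2 and Cdh5 were not among them. The windows shown are those of Emcn (chr3:137340828-137341127, plus strand) and Egfl7 (chr2:26580833-26581132 and chr2:26583615-26583914, plus strand), which were lower in mutIDH1 by the test, and of Mfsd2a (chr4:122961139-122961438, minus strand), a barrier gene with nearly the same signal in both groups. Capitals mark AGGAAG, a core of ETS factors such as Erg and Fli1, or ACGTG, a core of hypoxia-inducible factors, on either strand.
Emcn: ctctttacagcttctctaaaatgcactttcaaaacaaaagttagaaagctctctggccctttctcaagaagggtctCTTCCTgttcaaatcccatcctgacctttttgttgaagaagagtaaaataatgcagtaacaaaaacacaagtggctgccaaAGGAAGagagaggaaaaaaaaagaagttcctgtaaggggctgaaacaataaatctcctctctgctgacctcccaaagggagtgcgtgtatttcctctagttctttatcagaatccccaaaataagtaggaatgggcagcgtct
Egfl7 first window: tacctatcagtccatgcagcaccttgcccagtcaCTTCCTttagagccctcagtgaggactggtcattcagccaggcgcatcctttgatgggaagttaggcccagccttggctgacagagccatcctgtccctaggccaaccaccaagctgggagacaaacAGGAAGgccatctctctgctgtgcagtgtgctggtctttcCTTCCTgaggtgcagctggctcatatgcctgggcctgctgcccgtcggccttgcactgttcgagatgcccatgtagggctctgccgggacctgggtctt
Egfl7 second window: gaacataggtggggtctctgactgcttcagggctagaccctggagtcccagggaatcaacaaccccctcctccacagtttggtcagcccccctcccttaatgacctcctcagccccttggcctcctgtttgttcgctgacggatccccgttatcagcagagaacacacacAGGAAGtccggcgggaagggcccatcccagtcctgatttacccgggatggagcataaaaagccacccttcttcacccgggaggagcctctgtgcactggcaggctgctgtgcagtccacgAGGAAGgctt
Mfsd2a: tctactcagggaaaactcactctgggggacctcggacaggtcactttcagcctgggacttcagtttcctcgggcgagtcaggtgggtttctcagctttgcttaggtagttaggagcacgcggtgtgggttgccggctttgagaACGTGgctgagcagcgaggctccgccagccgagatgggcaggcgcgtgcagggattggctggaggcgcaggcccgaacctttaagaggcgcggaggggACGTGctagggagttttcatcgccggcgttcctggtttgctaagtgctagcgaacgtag
AGGAAG occurred 2 times in the Emcn window and 3 and 2 times in these Egfl7 windows, and 0 times in that of Mfsd2a, which held ACGTG 2 times. The other Egfl7 window held neither. The window of Robo4, which was not called by the test, is not shown and held AGGAAG 1 time and ACGTG 0 times. Counted by gene, 16 of the 27 with a window held AGGAAG in at least 1 of their windows. Whether the motif goes with the change was not tested. Among all windows of these genes, 20 of 38 (52.6%) held AGGAAG, against 35.4% of the 32851 windows of all genes, and 9 of 38 (23.7%) held ACGTG, against 19.6%. These matches describe the sequence and are not measured binding sites.

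Tumours that carry the mutant enzyme were set against tumours with extra wild-type IDH1, to see whether their vessels differ in transcript level. In mutIDH1 gliomas 5 of the 43 vessel genes fell and 0 rose by limma with Benjamini-Hochberg adjustment over all 16917 genes at 0.05; 0.899% of all tested genes fell and 0.449% rose, and among the 11878 genes above background 1.28% fell and 0.640% rose. All 5 are on the endothelial identity list: Vwf, Emcn, Mmrn2, Egfl7 and Cdh5. Of these, Egfl7 and Mmrn2 are also on a wider angiogenic list described below. At an unadjusted p under 0.05, 18 of 43 were lower (7.25% of all genes and 10.2% of those above background) and 1 was higher, Vcam1 (7.11% and 9.90%). In 20 of 43, 19 of them above background, all 3 mutIDH1 samples lay below both wtIDH1 samples (14.0% of all genes and 15.9% of those above background), and in 1 all lay above (16.7% and 18.3%). These shares over all genes are the ones to set beside every list count below. The median log2 change over the 43 was -0.30, and -0.45 over the 35 above background, where the median over all genes was 0.01 and 0.02.

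**Figure D1:**
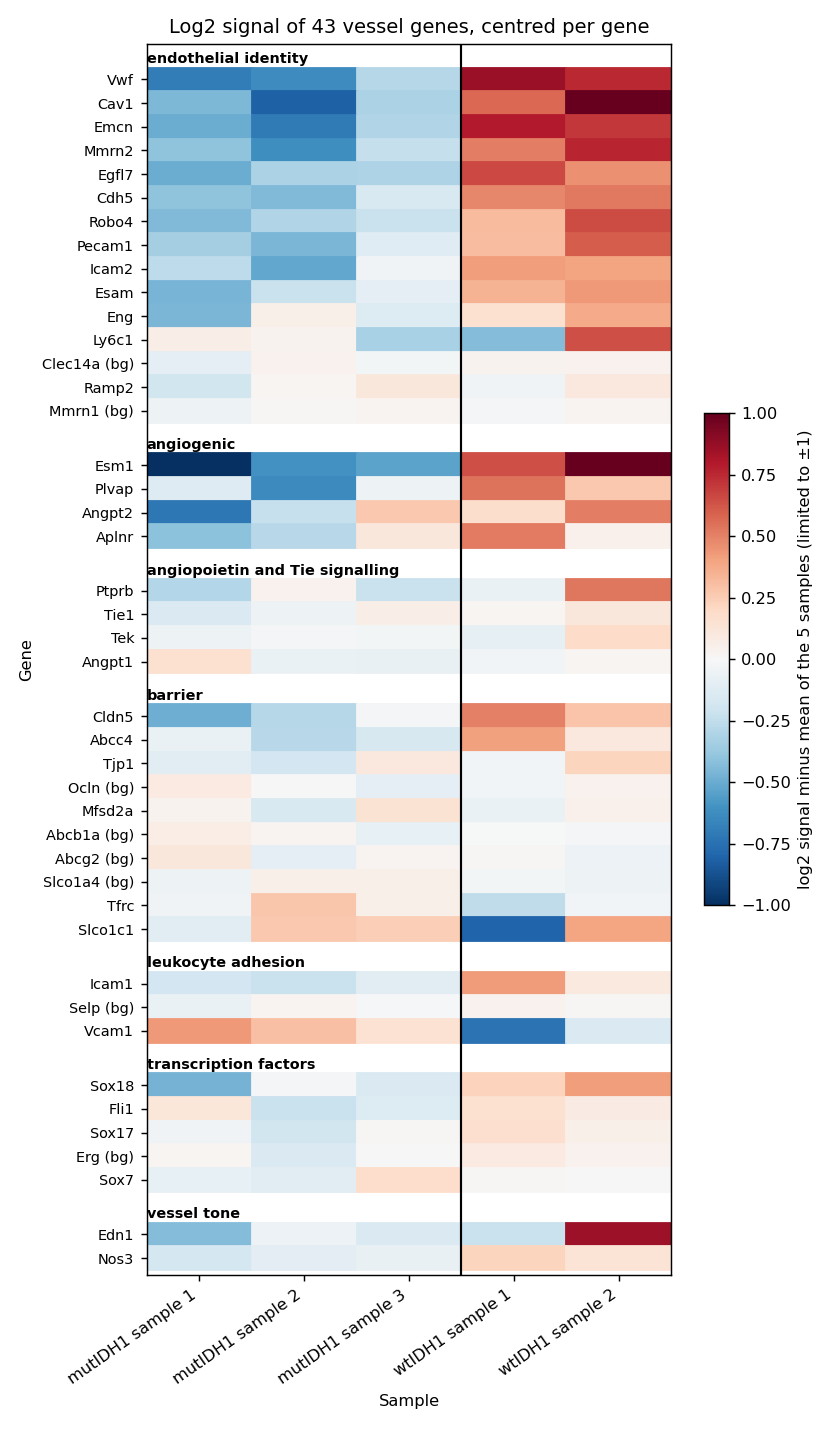
Log2 signal of the 43 tested vessel genes (rows, by role) in the 3 mutIDH1 and 2 wtIDH1 gliomas (columns), each gene centred on its mean over the 5 samples; "bg" marks the 8 genes at or under background on all arrays. Blue in mutIDH1 and red in wtIDH1 runs through most endothelial identity genes, while most barrier genes stay near white, and Vcam1 shows the opposite colours.

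Among the endothelial identity genes, Vwf, von Willebrand factor, which endothelial cells store and which tethers platelets, read 8.73, 8.80 and 9.14 in mutIDH1 samples 1, 2 and 3, against 10.29 and 10.18 in wtIDH1 samples 1 and 2. The groups were apart by more than 1 log2 unit at their closest, and Vwf fell by 1.34 ± 0.14 (log2, SE; 2.54-fold lower; limma adjusted p = 0.0267). The other Vwf probe was under background on all arrays and was left out by the filter. Emcn, endomucin, a sialomucin of capillaries and veins, read 9.86, 9.65 and 10.05 in mutIDH1, against 11.15 and 11.06 in wtIDH1. It was low in every mutIDH1 sample and nearly equal in the wtIDH1 pair, and fell by 1.26 ± 0.13 (2.39-fold lower; adjusted p = 0.0267). Mmrn2, multimerin 2, an endothelial matrix protein, read 9.07, 8.85 and 9.23 in mutIDH1, against 9.98 and 10.23 in wtIDH1. The groups did not overlap, and Mmrn2 fell by 1.06 ± 0.14 (2.08-fold lower; adjusted p = 0.0439).

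Egfl7, a protein that endothelial cells secrete and that guides vessel tube formation, read 11.08, 11.26 and 11.27 in mutIDH1, against 12.24 and 12.03 in wtIDH1. It was among the tightest of these genes within mutIDH1 (SD 0.11, n = 3) and fell by 0.93 ± 0.10 (1.90-fold lower; adjusted p = 0.0311). Its second probe gave a similar log2 change of -0.98, and its dimmest, close to background, -0.05. Cdh5, VE-cadherin, the cadherin of endothelial adherens junctions, read 8.02, 7.98 and 8.26 in mutIDH1, against 8.91 and 8.95 in wtIDH1. It was low in all 3 mutIDH1 samples, and fell by 0.84 ± 0.10 (1.79-fold lower; adjusted p = 0.0384), with its dimmer second probe at -0.39.

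The calls of these 5 genes depended on which samples entered. Leaving out any 1 of the mutIDH1 samples ended all 5 calls, while the changes themselves moved little (0.904 to 1.1 times those above; adjusted p 0.0837 at the lowest, 0.193 at the highest). With the Xist signal as a covariate all 5 adjusted calls were lost as well (adjusted p from 0.0681 to 0.0915), but each change was at least 0.993 times that above and all 5 kept an unadjusted p under 0.05. Cdh5 was also lost without wtIDH1 sample 1 (0.0608) and sample 2 (0.0521), Mmrn2 without wtIDH1 sample 2 (0.0588) and with cyclic loess (0.053), and Egfl7 with the mean of its probes (-0.65, adjusted p = 0.0547).

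Other identity genes had the same direction without passing. Cav1, caveolin-1, the coat protein of caveolae, which many other cells also make, read 10.70, 10.33 and 10.83 in mutIDH1, against 11.72 and 12.15 in wtIDH1. Its groups did not overlap, and its change was -1.32 ± 0.19 (adjusted p = 0.0509). Robo4, an endothelial receptor that steadies vessels, stood at -0.81 ± 0.13 (adjusted p = 0.0630), Pecam1, CD31, at -0.76 ± 0.14 (0.0832), Icam2 at -0.68 ± 0.15 (0.114) and Esam, a junction adhesion molecule, at -0.65 ± 0.12 (0.0869). In each of these 4 genes, as in Eng, endoglin, a co-receptor of TGF-beta and BMP9 (-0.45 ± 0.17, adjusted p = 0.313), every mutIDH1 sample lay below both wtIDH1 samples. Cav1 passed with the dimmest 40% of probes left out (adjusted p = 0.0428) and with normexp (0.0313). Cav1 and Robo4 passed without wtIDH1 sample 1 (adjusted p = 0.0405 and 0.0349) and, with Pecam1 (0.0408), under trended and robust moderation (0.0066 and 0.0297). Pecam1 had a second probe above background with a change of -0.39 and another at background, and the 3 other probes of Robo4 were at background. The mean over the probes that passed the filter gave -0.38 for Pecam1 and -0.35 for Robo4.

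The remaining identity genes had no such separation. Ramp2, the endothelial partner of the adrenomedullin receptor, read 11.73, 11.94 and 12.04 in mutIDH1, against 11.88 and 12.03 in wtIDH1. The ranges overlapped almost fully, with a log2 change of -0.05 and a 95% interval of -0.35 to 0.24. Ly6c1, a surface protein of brain endothelium and of monocytes, with near-identical gene copies that make its probe uncertain, read 9.55, 9.52 and 9.16 in mutIDH1, against 9.05 and 10.13 in wtIDH1. The wtIDH1 samples lay on either side of all mutIDH1 samples, and the 95% interval of the change, centred on -0.18, reached up to 0.63. Over the 15 tested identity genes the median change was -0.76, with 5 called lower, 11 lower at an unadjusted p under 0.05 and 0 higher. The shares of all tested genes were 0.899% called lower, and 7.25% lower and 7.11% higher at that unadjusted p.

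**Figure D2:**
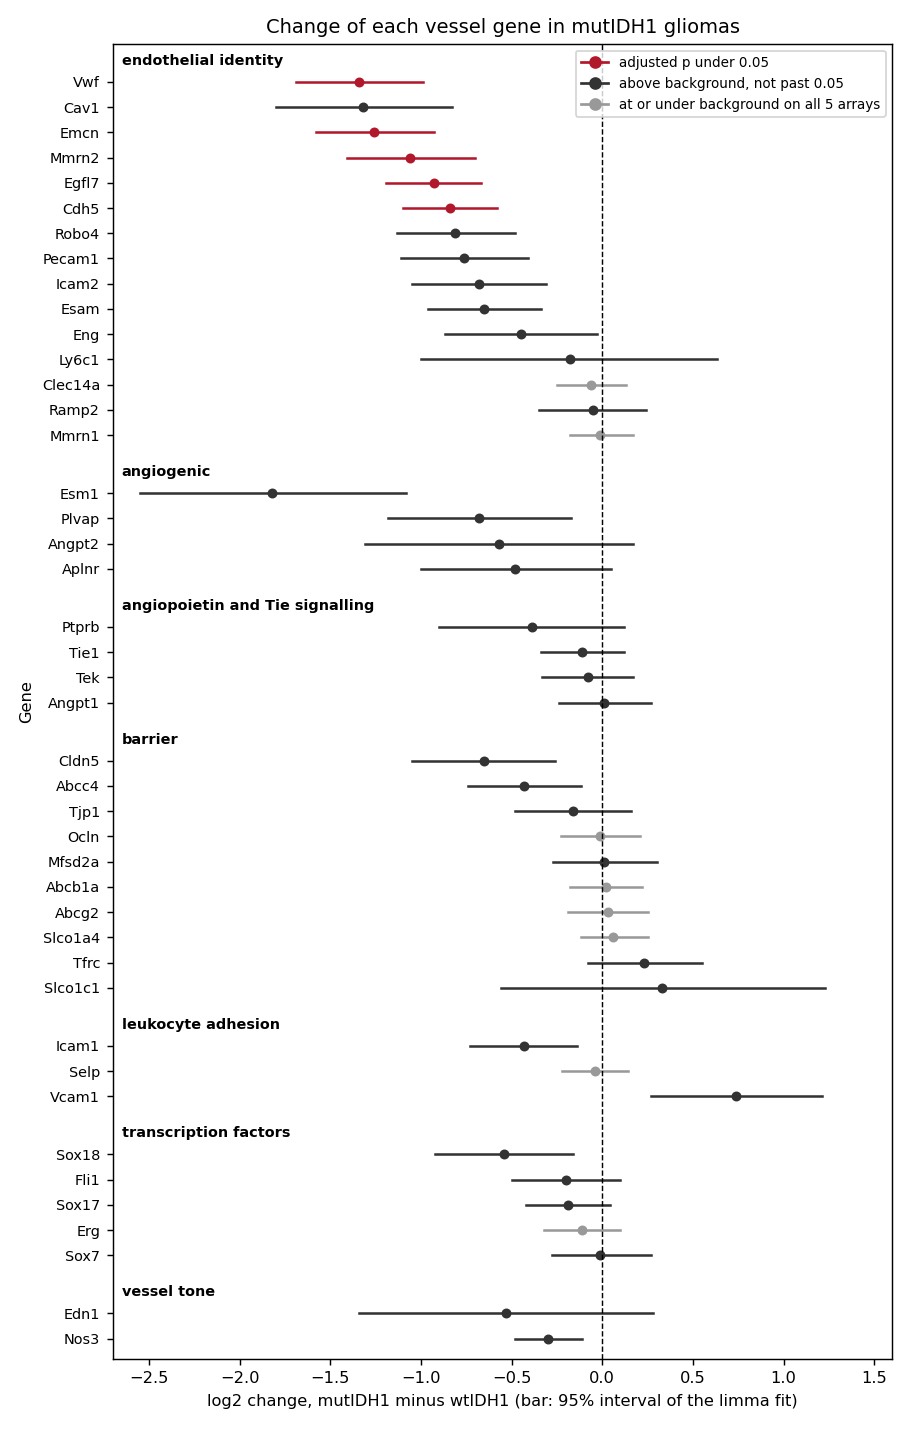
Log2 change of each tested vessel gene (mutIDH1 minus wtIDH1, 3 against 2 samples), with the 95% interval of the limma fit, by role. The 5 red genes, all on the endothelial identity list, passed an adjusted p of 0.05. Grey genes were at or under background on all arrays. Vcam1 is the 1 gene whose interval lies wholly above 0.

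The 4 tested genes of the angiogenic list were lower on average, but none of the 4 passed the test over all genes. Esm1, endocan, a secreted proteoglycan of tip cells that VEGF induces, read 8.89, 9.33 and 9.40 in mutIDH1, against 10.58 and 11.46 in wtIDH1. The groups were apart, the wtIDH1 pair differed from each other by nearly 1 log2 unit, and the change of -1.82 ± 0.29 (3.52-fold lower), the lowest of the 43 genes, had an adjusted p of 0.0639. Esm1 passed with normexp (0.0316), with trended and robust moderation (0.025), with the Xist covariate (0.0347) and without either wtIDH1 sample (0.0252 and 0.0446), where 1 sample stands for its group. Plvap, the protein of endothelial fenestrae that is scarce where the barrier is intact, read 10.10, 9.59 and 10.18 in mutIDH1, against 10.77 and 10.50 in wtIDH1. Its groups did not overlap, with a change of -0.68 ± 0.20 (adjusted p = 0.213).

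Aplnr, the apelin receptor of sprouting vessels, read 7.99, 8.12 and 8.51 in mutIDH1, against 8.92 and 8.45 in wtIDH1, and mutIDH1 sample 3 reached above wtIDH1 sample 2. Its change was -0.48 ± 0.21 (adjusted p = 0.398), and -0.24 without wtIDH1 sample 1. Angpt2 read 10.62, 11.11 and 11.61 in mutIDH1, against 11.52 and 11.85 in wtIDH1. The mutIDH1 samples spread over about 1 log2 unit and the highest of them passed 1 wtIDH1 sample, so the change of -0.57 ± 0.29 was not distinguishable from the spread (95% interval -1.31 to 0.17, adjusted p = 0.484), and it was -0.32 without mutIDH1 sample 1. The dimmer second probe of Angpt2 gave a change of -0.27. Over these 4 genes the median change was -0.62, with 0 called by limma in either direction. At an unadjusted p under 0.05, 2 of the 4 were lower (7.25% of all tested genes).

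The angiopoietin receptors did not separate the groups. Tek, which encodes Tie2, read 8.17, 8.20 and 8.19 in mutIDH1, against 8.13 and 8.41 in wtIDH1. The mutIDH1 values fell within the wtIDH1 range, and the interval of the change (-0.33 to 0.17) leaves out a fall as large as that of Cdh5. Tie1, its partner receptor, stood at -0.11 ± 0.09, and Ptprb, the phosphatase VE-PTP that restrains Tie2, at -0.39 ± 0.20 (adjusted p = 0.690 and 0.490), both with overlapping groups. Ptprb was -0.69 without wtIDH1 sample 1 and -0.09 without wtIDH1 sample 2. Angpt1 was above background only in mutIDH1 sample 1, at 7.53, and its other 4 samples read between 7.29 and 7.39. A ratio of Angpt2 to Angpt1 therefore cannot be read here. Of these 4 genes 0 passed by limma and 0 had an unadjusted p under 0.05.

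**Figure D3:**
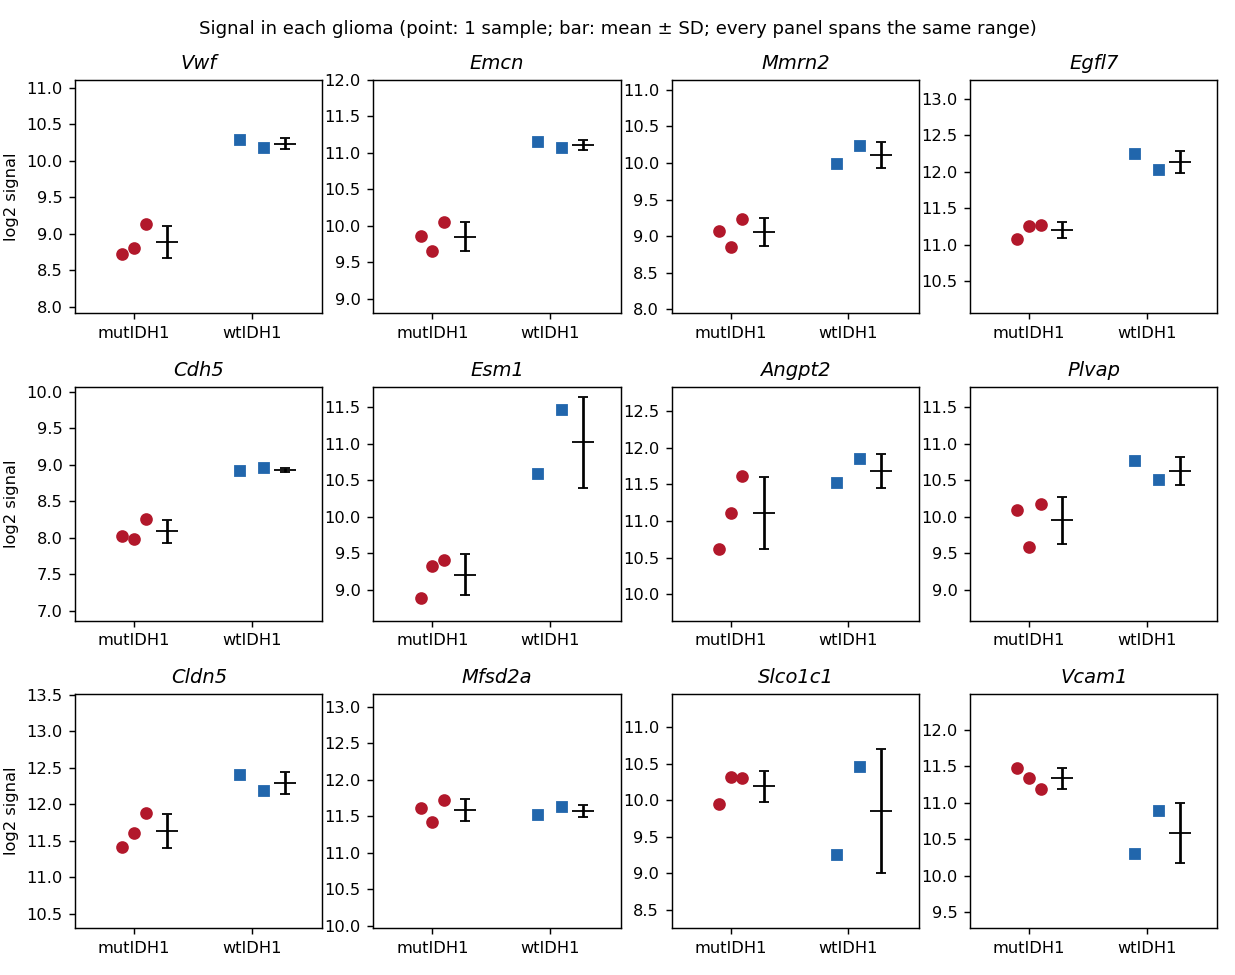
Log2 signal of 12 vessel genes in each glioma, 3 mutIDH1 samples on the left of each panel and 2 wtIDH1 samples on the right, with mean ± SD; all panels span the same number of log2 units. The 5 called genes, Esm1, Plvap and Cldn5 are lower in all mutIDH1 samples, Mfsd2a has nearly equal groups, Slco1c1 varies most between the wtIDH1 samples, and Vcam1 is higher in all mutIDH1 samples.

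Barrier genes showed no common direction, and 0 of 10 passed by limma (2 lower and 0 higher at an unadjusted p under 0.05). Among all tested genes 7.25% were lower and 7.11% higher at that unadjusted p. Cldn5, claudin-5, the main claudin of brain endothelial tight junctions, read 11.41, 11.61 and 11.88 in mutIDH1, against 12.40 and 12.18 in wtIDH1. All mutIDH1 samples were lower, by 0.65 ± 0.16 on average (1.57-fold lower, adjusted p = 0.146). Mfsd2a, the transporter of omega-3 lysophospholipids that also restrains transcytosis, read 11.61, 11.42 and 11.72 in mutIDH1, against 11.51 and 11.63 in wtIDH1. The groups overlapped, and the 95% interval of the change, -0.27 to 0.30, leaves out a fall of the size seen for Cldn5. Tjp1, the junction scaffold ZO-1 of many epithelia and of endothelium, overlapped as well (-0.16, interval -0.48 to 0.16).

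The transporters differed among themselves. Abcc4, an efflux pump that glial cells also carry, read 9.06, 8.85 and 8.96 in mutIDH1, against 9.54 and 9.23 in wtIDH1, and was lower in all mutIDH1 samples (-0.43 ± 0.12, adjusted p = 0.198; -0.27 without wtIDH1 sample 1). Tfrc, the transferrin receptor, which dividing cells also carry, had overlapping groups and stood at 0.23 ± 0.13 (adjusted p = 0.513), and its 2 probes gave the same change. It was 0.12 without wtIDH1 sample 1 and 0.35 without wtIDH1 sample 2. Slco1c1, the thyroxine transporter of brain endothelium and of some astrocytes, read 9.94, 10.32 and 10.30 in mutIDH1, against 9.25 and 10.45 in wtIDH1. The wtIDH1 samples enclosed all mutIDH1 values, and the change was 0.94 without wtIDH1 sample 2 and -0.27 without wtIDH1 sample 1. The 4 remaining barrier genes, the efflux pumps Abcb1a and Abcg2, the anion transporter Slco1a4 and the tight junction protein Ocln, were at or under background throughout, between 7.18 and 7.39 on all arrays.

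Like Slco1c1, 6 of 8 measured astrocyte endfoot markers were lower in wtIDH1 sample 1 than in wtIDH1 sample 2, while Dtna (9.55 and 9.22) and Hepacam (7.85 and 7.77) were not. Of 10 listed, 8 were measured, all above background, with 0 called by limma (1 higher at an unadjusted p under 0.05) and a summed linear signal of 29852 to 38188 in mutIDH1, against 12775 in wtIDH1 sample 1 and 30349 in wtIDH1 sample 2. Aqp4, the endfoot water channel, read 11.24, 10.87 and 10.29 in mutIDH1, against 8.09 and 10.42 in wtIDH1. The summed signal rests mostly on the brightest probes, and the part of these cells in the Slco1c1 values was not tested.

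Set side by side, the barrier genes had a median log2 change of 0.02 (10 genes, range -0.65 to 0.33) and the angiogenic genes -0.62 (4 genes, range -1.82 to -0.48), a difference between the medians of 0.64. Since 4 of the 10 barrier genes had no measurable signal, the median over the 6 above background, -0.07, is the more informative value, and the difference was then 0.55. A wider angiogenic list, with Egfl7, Eng, Clec14a and Mmrn2 added, had 2 of 8 tested genes called lower, the Egfl7 and Mmrn2 described above, and 5 lower at an unadjusted p under 0.05; its median over the 7 above background was -0.68. Of 7 barrier genes largely restricted to vessels only 3 were above background (Cldn5, Mfsd2a and Slco1c1), with a median of 0.01 and a range of -0.65 to 0.33. Centred on each gene's mean, the angiogenic genes averaged -0.57, -0.44 and -0.05 in mutIDH1 samples 1, 2 and 3, against 0.47 and 0.59 in wtIDH1. The barrier genes above background averaged -0.13, -0.06 and 0.06 in mutIDH1, against -0.04 and 0.17 in wtIDH1. The groups were apart for the angiogenic genes and overlapped for the barrier genes. They were also apart for the 13 endothelial identity genes above background, whose median change was -0.81. These are descriptions of short lists, and no test of a difference between lists was made. Cldn5, the barrier gene with the lowest change, had a change (-0.65) much like that of Plvap (-0.68).

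**Figure D4:**
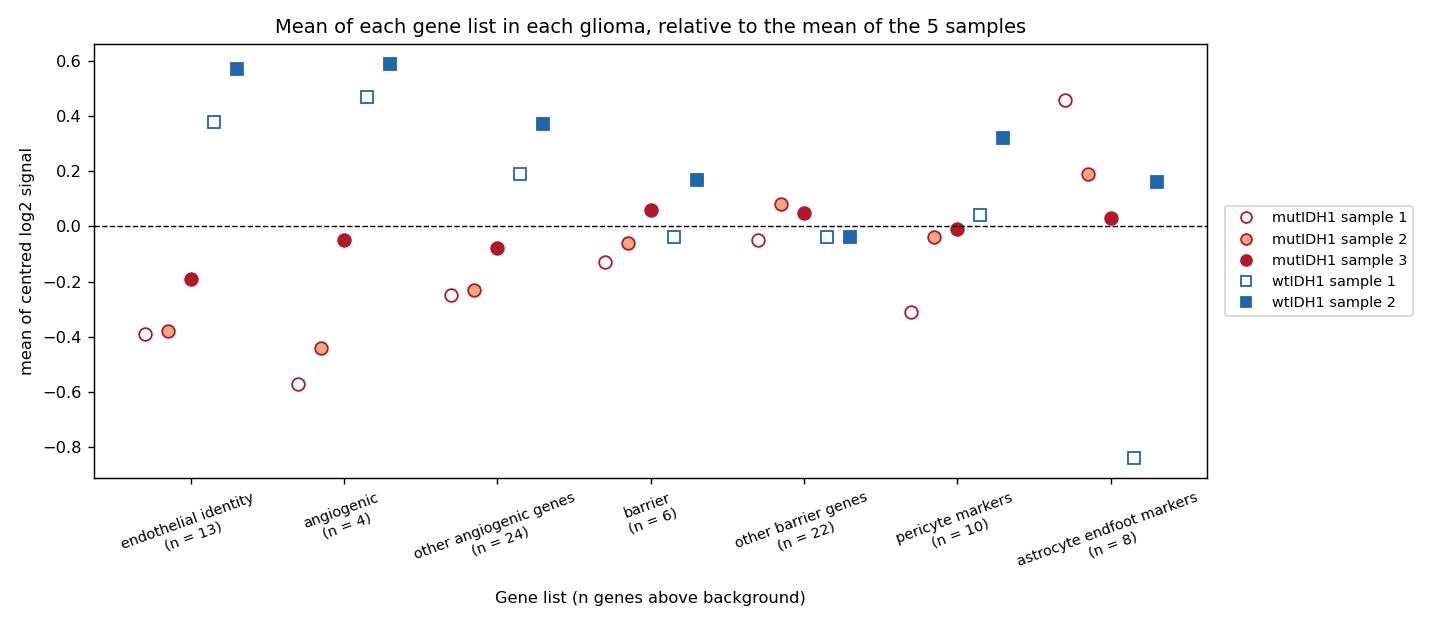
Mean log2 signal of vessel gene lists and of 2 neighbouring cell types in each glioma, relative to the mean of the 5 samples, over genes above background. All mutIDH1 samples lie below both wtIDH1 samples for the endothelial identity, angiogenic, other angiogenic and pericyte lists. For the pericyte markers the closest samples are mutIDH1 sample 3 (-0.01) and wtIDH1 sample 1 (0.04). The 2 barrier lists plotted stay between -0.13 and 0.17 in every sample, and astrocyte endfoot markers are lowest in wtIDH1 sample 1 (-0.84).

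Further genes of both kinds came from lists drawn up by role, with earlier results of these data known. They are therefore no independent support for the pattern above. Over all tested genes 0.899% fell and 0.449% rose, and 7.25% were lower and 7.11% higher at an unadjusted p under 0.05. Of 25 other angiogenic genes, 3 fell and 0 rose by limma (12 lower and 0 higher at an unadjusted p under 0.05), with a median of -0.49. Those that fell were Col4a1 (-1.32 ± 0.14) and Col4a2 (-1.18 ± 0.17), the collagen chains of the vessel basement membrane, and Ephb4, the ephrin receptor of veins (-0.50 ± 0.07), with adjusted p of 0.0288, 0.0477 and 0.0443. Of 27 other barrier genes measured, 1 fell and 1 rose (5 lower and 3 higher at an unadjusted p under 0.05), with a median of -0.02. Slc2a1, the glucose transporter GLUT1, fell by 0.77 ± 0.08 (adjusted p = 0.0282), and Slc38a3, a glutamine transporter that astrocytes also carry, rose by 0.99 ± 0.13 (adjusted p = 0.0403). These 5 calls were lost without any 1 of the mutIDH1 samples (adjusted p from 0.0709 to 0.221). Col4a2 and Ephb4 were also lost without either wtIDH1 sample (0.056 to 0.0792), Slc38a3 without wtIDH1 sample 2 (0.053), and Slc2a1 and Ephb4 with the Xist covariate (0.0701 and 0.0916).

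The leukocyte adhesion genes pointed in opposite directions. Vcam1, the ligand of VLA-4 on leukocytes, which astrocytes and neural progenitors can also make, read 11.47, 11.34 and 11.19 in mutIDH1, against 10.30 and 10.88 in wtIDH1. Every mutIDH1 sample was higher, by 0.74 ± 0.19 on average (adjusted p = 0.156). With wtIDH1 sample 2 left out the change was 1.03 (adjusted p = 0.0326), and with wtIDH1 sample 1 left out it was 0.46 (0.186). Its 3 other probes were at or under background, and the mean of its probes gave 0.21 (0.323). Icam1, the ligand of LFA-1, induced by inflammatory cytokines, read 8.43, 8.39 and 8.50 in mutIDH1, against 9.04 and 8.71 in wtIDH1. Every mutIDH1 sample was lower, by 0.43 ± 0.12 (adjusted p = 0.176), and the change was -0.27 without wtIDH1 sample 1. Selp, P-selectin, was at or under background on all arrays. Leukocyte markers, beside Icam1, numbered 10 measured of 12, with 0 called by limma (3 lower at an unadjusted p under 0.05). Their summed signal was 8764 to 10802 in mutIDH1, against 11296 and 16232 in wtIDH1. Most of it came from Laptm5, whose groups overlapped (12.78, 12.75 and 12.28 in mutIDH1, against 12.71 and 13.28 in wtIDH1). The part of leukocytes in Icam1 and of astrocytes, lowest in wtIDH1 sample 1, in Vcam1 was not tested.

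Of the endothelial transcription factors, Sox18, a SOX factor of developing and tumour vessels, read 8.74, 9.19 and 9.06 in mutIDH1, against 9.44 and 9.63 in wtIDH1. All mutIDH1 samples were lower, by 0.54 ± 0.15 (adjusted p = 0.193). Sox17, a factor of arterial endothelium, was lower in all mutIDH1 samples by a small amount (-0.19 ± 0.09, adjusted p = 0.457), and Sox7 was at 8.34 in both groups (interval of the change -0.28 to 0.27). The ETS factors were dim: Fli1 exceeded background on 3 arrays (-0.20 ± 0.12) and Erg on none. Of the 5 factors 0 passed by limma and 1 was lower at an unadjusted p under 0.05, with a median change of -0.19.

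The vessel tone genes included Nos3, endothelial nitric oxide synthase, which read 8.32, 8.39 and 8.42 in mutIDH1, against 8.72 and 8.63 in wtIDH1. The groups were apart by a small step, -0.30 ± 0.07 (adjusted p = 0.151), and all 3 of its probes above background had the same sign. Edn1, the vasoconstrictor endothelin-1, read 8.02, 8.39 and 8.31 in mutIDH1, against 8.23 and 9.31 in wtIDH1. Only wtIDH1 sample 2 stood out, and the change of -0.53 turned to 0.02 without it and was -1.07 without wtIDH1 sample 1.

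Other cells carry some of these transcripts. Of 10 listed platelet markers, beside Vwf, which platelets also hold, 8 were measured and 4 of them, Itgb3, Gp9, Gp5 and Treml1, were at or under background on all arrays; the list's summed signal was 1409 to 1449 in mutIDH1, against 1844 and 2201 in wtIDH1. Pf4, a platelet chemokine that macrophages also express, was the 1 of the list that fell (-1.91 ± 0.25, limma adjusted p = 0.0432). It read 7.54, 7.26 and 7.30 in mutIDH1, against 8.86 and 9.70 in wtIDH1, and made most of the difference in the summed signal. Of the other markers above background, Ppbp (-0.35) and Gp1bb (-0.30) were lower in all mutIDH1 samples without passing. Itga2b had overlapping groups (0.01). Of 11 pericyte markers 10 were measured, with a median change of -0.32 (4 lower and 0 higher at an unadjusted p under 0.05). Pdgfrb was the 1 that fell (-0.68 ± 0.07, limma adjusted p = 0.0281). The change was below 0 in 7 of the 10 and above 0 in 3, Rgs5 (0.09), Cspg4 (0.20) and Vtn (0.13), all with overlapping groups. Pf4 and Pdgfrb were lost without any 1 of the mutIDH1 samples (adjusted p from 0.0985 to 0.218) and with the Xist covariate (0.0844 and 0.0683). Red cell markers had a summed signal of 7077 to 16208 in mutIDH1, against 24284 and 29683 in wtIDH1, most of it from Hba-a1, whose gene has a near-identical copy, and 0 of 6 measured were called by limma (2 lower and 1 higher at an unadjusted p under 0.05). Of 6 lymphatic markers, beside Mmrn1, 0 were called by limma (1 lower at an unadjusted p under 0.05), and Lyve1 was at or under background. For comparison, 0.899% of all tested genes were called lower, and 7.25% were lower and 7.11% higher at an unadjusted p under 0.05. The part of platelets, pericytes and blood in the vessel genes was not tested.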

How the data were processed

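RNA of 3 mutIDH1 and 2 wtIDH1 gliomas was measured on Illumina BeadArrays. The values are the log2 signals deposited by the authors; per the submitters' processing notes limma was used, and its version and steps are not given in the sources used here. All 5 arrays share 1 distribution (range 6.91 to 15.06, medians within 0.00069), with no background subtracted to 0, which compresses changes of dim genes. A second table with 10 columns of per-sample values was not used, because its column names match no single sample.

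Probes were named from the platform annotation (34885 with 1 gene symbol, 18 with several, not named). The dimmest 20% of probes were left out, and the brightest probe per gene was kept. The groups were compared with limma 3.58.1 in R 4.3.3 (moderated test, 2-sided, with no covariate; 3 residual and 2.5 prior degrees of freedom; Benjamini-Hochberg over 16917 genes, threshold 0.05), and the procedure was tested on simulated data. Changes are mutIDH1 minus wtIDH1 with the moderated SE. Each sample has its own tumour code in the labels. Gene lists were described by counts and medians. The genes and lists were chosen with earlier results of these data known. All 47 genes are named. Of each other list up to 4 genes with the smallest p are named, or those a result turns on. List members at background, and some that overlapped or went the other way, were named after their values were seen. Alternatives covered the dim filter, several probes per gene, normexp (offset 50), cyclic loess, moderation, samples left out, replicate number, Xist signal and list membership.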

Additional observations from a re-analysis of the deposited data

How the results depend on the processing

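Of the 35 vessel genes above background, none changed direction without the filter on dim probes, with 40% of probes left out, with normexp, under trended and robust moderation or with the Xist covariate. Genes lower and higher numbered 152 and 76 in the main setting, 253 lower under trended and robust moderation, 54 and 11 with the Xist covariate, and ranged from 0 to 234 lower and from 0 to 245 higher over the samples left out. Vessel genes called lower numbered 5 in the main setting, 9 under trended and robust moderation (with Esm1, Pecam1, Robo4 and Cav1), 7 with normexp (with Esm1 and Cav1), 6 with 40% of probes left out (with Cav1), 1 with the Xist covariate (Esm1) and 0 to 7 over the samples left out, where 0 to 1 were called higher. Without mutIDH1 sample 1, 2 or 3 this number was 0, though all 5 kept an unadjusted p under 0.05. The barrier median was 0.02, -0.07 both with 40% of probes left out and with only genes above background (the latter chosen after seeing the data), and -0.05 to 0.03 over the samples left out. The angiogenic median stayed between -0.80 and -0.53 over all alternatives, and the difference between 0.54 and 0.84. With the replicate number of the titles as a block, 0 genes were called in either direction, 0 vessel genes among them; mutIDH1 sample 3 has no partner of its number. Deviations of same-numbered samples correlated at -0.263 and 0.107. The deviations of the 2 wtIDH1 samples mirror each other, so these values cannot show whether the numbers pair the samples. Direction turned only in genes near 0 or with discordant wtIDH1 samples, over the samples left out: Slco1c1 (-0.27 to 0.94), Mfsd2a (-0.06 to 0.10; -0.01 with cyclic loess and -0.06 with the block), Angpt1 (-0.07 to 0.06), Tek (-0.22 to 0.06), Ly6c1 (-0.72 to 0.36), Ramp2 (-0.13 to 0.04), Sox7 (-0.10 to 0.05; 0.02 with the mean of its probes) and Edn1 (-1.07 to 0.02). The cause of these differences was not tested. Dim probes limit Ocln, Slco1a4, Abcb1a, Abcg2, Mmrn1, Clec14a, Selp, Erg, Angpt1 and Fli1.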
